A study of Mus musculus with 10 samples.

Results

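Embryonic stem cells (ESCs) were compared with cells at day 9 of induced reprogramming, the latest intermediate of the series, to measure what these intermediates lacked and what they carried in excess. The comparison used every library labelled ESC and every library labelled day 9 (D9), 2 of each, which is 4 of the 10 libraries in the series. Both groups have the background C57BL/6 x 129. The day 9 cells descend from embryonic fibroblasts of the genotype OKSM Col1a1/M2rtTA ROSA26. The Col1a1 locus of these cells holds a cassette, switched on by doxycycline, for the factors Pou5f1 (Oct4), Sox2, Klf4 and Myc, and the reverse transactivator is expressed from the Rosa26 locus. They were grown in ESC medium with doxycycline and ascorbic acid and sorted for the surface carbohydrate SSEA1 (written SSEA+ in the sample label). The ESC libraries are of 1 line, V6.5, which was kept on irradiated feeder cells in ESC medium with serum and LIF and was collected without a sort. Doxycycline and ascorbic acid are not listed for the ESCs, and inhibitors of MEK and GSK3 are listed only for other assays on this line. Genotype, medium, sorting and feeders therefore differ together with the stage and cannot be told apart. The 2 uninduced fibroblast (MEF) libraries, from mice with the same cassette, served to measure fibroblast RNA.

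Naive pluripotent cells are held by a network of transcription factors around Oct4, Sox2 and Nanog, supported by LIF and BMP signals and opposed by FGF signalling through ERK. Forced expression of Oct4, Klf4, Sox2 and Myc first removes fibroblast expression and brings on epithelial genes, and the network becomes independent of the cassette only late. ESCs also transcribe many genes of the germline, and a small fraction of cells in an ESC culture enters a short state resembling the 2-cell embryo, marked by Zscan4.

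Libraries held 29585876 and 37904250 estimated reads at day 9 and 31221957 and 34611626 in ESCs. Genes with at least 10 reads numbered 17166 and 17809 at day 9 and 18378 and 18522 in ESCs. Transcripts of the mitochondrial genome took 5.32% and 5.0% of the reads at day 9 and 2.88% and 2.83% in ESCs. Levels are given as CPM, read counts scaled to the library total with TMM, as the values of replicates 1 and 2. Levels in CPM are not scaled by transcript length. They were compared between groups, and rankings by CPM difference and sums over lists give more weight to long transcripts. A gene was called higher or lower in ESCs at a log2 fold change (ESC minus D9) of at least 1 and an edgeR quasi-likelihood adjusted p under 0.05. The labels do not say whether replicates came from separate cultures, so p-values measure only the spread between these libraries.

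Of 20165 genes tested, 3748 were higher in ESCs (18.6%) and 2889 were lower (14.3%), together 32.9%. Counts of called genes in each list below are to be read beside these shares. The 2 libraries of a group lay entirely above or below the 2 of the other for 84.3% of all genes tested, so separation of the groups was the rule and is a weak mark of any one gene. The higher genes differed by more: 801 of them had a log2 fold change of at least 5, against 225 of the lower genes. Among the higher genes, 194 were under 1 CPM at day 9 and at 10 CPM or more in ESCs, and 113 of these were also under 1 CPM in MEFs. In the other direction 85 genes were under 1 CPM in ESCs and at 10 CPM or more at day 9.

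**Figure D1:**
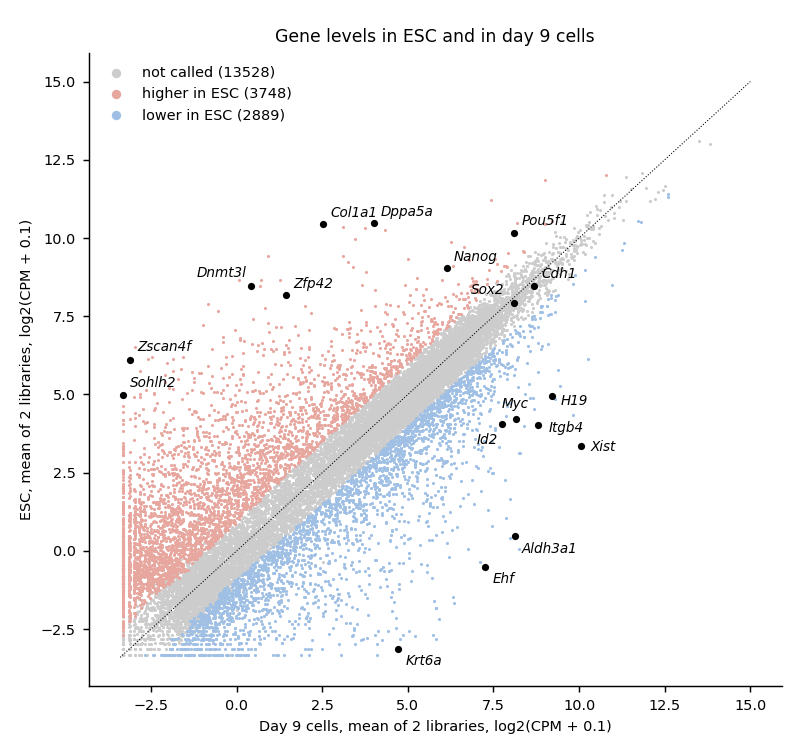
Mean level of every tested gene at day 9 (horizontal axis) and in ESCs (vertical axis), in log2(CPM + 0.1), with 3748 genes called higher in ESCs in red and 2889 called lower in blue. The dotted line marks equal levels; Sox2 and Cdh1 lie close to it, Dnmt3l and Zfp42 far above it, and Ehf and Aldh3a1 far below it.

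Fibroblast RNA was present in the ESC libraries. The 27 fibroblast markers, extracellular matrix, receptor and transcription factor genes of mesenchymal cells, summed to 7367 and 7631 CPM in ESCs, 296 and 315 CPM at day 9 and 73428 and 71572 CPM in MEFs. Of these, 24 were higher in ESCs than at day 9, 3 were not called (Col6a2, Dcn and Ddr2), and the median log2 fold change was 4.88, beside 0 over all genes tested. Every one of the 27 was at least as high in MEFs as in ESCs. Col1a1, the main chain of type I collagen, was at 5.14 and 6.21 CPM at day 9 and 1406 and 1380 CPM in ESCs, against a mean of 14972 CPM in MEFs. As a share of the MEF mean, the median marker stood at 9.39% and 10% in the ESC libraries and at 0.273% and 0.404% in the day 9 libraries. The share differed widely between markers, from 0.553% and 1.67% for Lum, a proteoglycan of connective tissue, to 41.4% and 41.9% for Mmp2, a gelatinase. At day 9 it ran from 0 for Lum, which had no read, to 10.6% in both libraries for Ddr2, a collagen receptor.

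**Figure D2:**
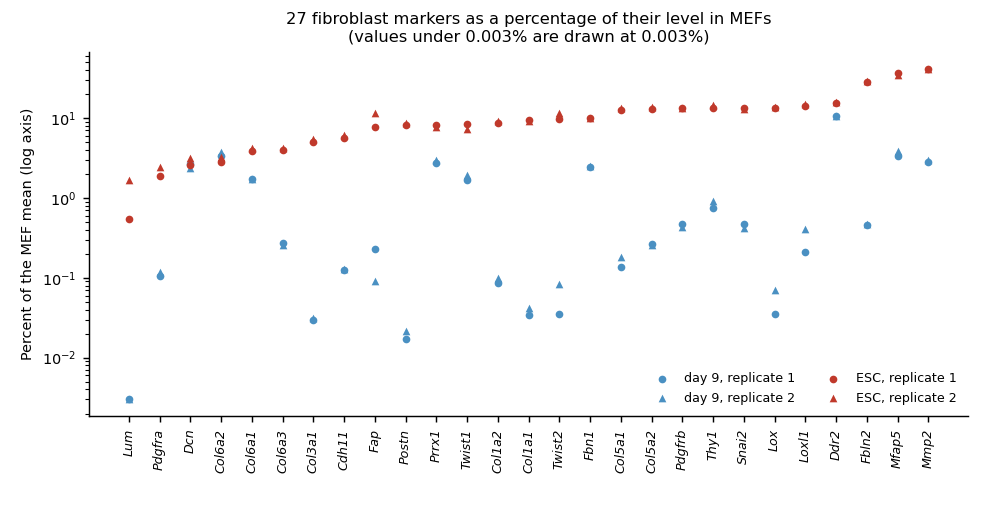
Level of each of the 27 fibroblast markers in the day 9 (blue) and ESC (red) libraries, as a percentage of the MEF mean on a log axis, ordered by ESC replicate 1. The ESC points lie around 10% for most markers, and the day 9 points lie below them for all markers but Col6a2 and Dcn.

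Genes higher in ESCs were therefore read beside their level in MEFs. The MEF mean was at or above the ESC mean for 1290 of the 3748 higher genes (34.4%) and under 10% of it for 1298 (34.6%). When the median marker share of the MEF mean was subtracted from each ESC library, 3126 higher and 2874 lower genes kept a 2-fold difference. The median log2 ratio of all genes moved from 0 to -0.19. What remained was not rescaled, and 0.1 CPM was added before the ratio. Values after the subtraction are therefore to be read beside -0.19, and large fold changes from near 0 CPM come out smaller. The amount taken off is set by the fibroblast markers themselves, so their own values after it carry no information, and 13 of the 27, Col1a1 among them, were at 0 in both ESC libraries. RNA is measured here in bulk, so fewer cells of a type and less RNA per cell cannot be told apart. Feeder cells are irradiated and may differ from the MEF libraries, and their part in each difference was not tested beyond the values given with it.

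For the 1298 higher genes with little MEF signal, day 9 cells had covered very different shares of the ESC level. In 321 genes the day 9 mean was under 1% of the ESC mean, in 487 it was between 1% and 10%, in 302 between 10% and 25%, and in 186 between 25% and 50%. The day 9 mean was at least 2-fold above the day 6 mean in 691 of the 1298 genes and at least 2-fold below it in 296. Of the 2889 genes lower in ESCs, the highest stage mean was that of day 9 for 1110, of day 6 for 762, of day 3 for 739 and of MEFs for 278.

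Among 28 transcription factors of the pluripotency network, 17 were higher in ESCs, 4 were lower and 7 were not called, with a median log2 fold change of 1.57. Pou5f1 was at 271 and 278 CPM at day 9 and 1124 and 1182 CPM in ESCs (log2 fold change 2.07, SE 0.05, edgeR adjusted p 1.1e-13). Nanog, the homeodomain factor that stabilises self-renewal, was at 69.2 and 71.2 CPM at day 9 and 522 and 528 CPM in ESCs, so day 9 cells held 13.4% of the ESC level. Esrrb, an orphan nuclear receptor of the same network, was at 37.5 and 39.5 CPM against 419 and 422 CPM (9.16%). Tfcp2l1, a factor downstream of LIF, had come closer, with 77.3 and 73.8 CPM at day 9 and 174 and 172 CPM in ESCs (43.7%).

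Several factors were nearly absent from day 9 cells. Zfp42, also called Rex1 and a marker of the naive state, was at 2.7 and 2.53 CPM at day 9 and 289 and 291 CPM in ESCs (log2 fold change 6.8, SE 0.06, edgeR adjusted p 5.1e-18). Tbx3, a T-box repressor that responds to LIF, was at 1.29 and 2.0 CPM against 87.7 and 88.6 CPM, with a MEF mean of 16.3 CPM. Prdm14, which represses FGF receptor genes and DNA methyltransferases in ESCs, was at 1.35 and 1.54 CPM against 28.3 and 28.6 CPM. Foxd3, a forkhead factor required for ESC maintenance, was at 0.546 and 0.556 CPM against 17.6 and 18.3 CPM. Utf1, a chromatin-associated factor long used as a late marker, was not among these nearly absent factors. Its day 9 libraries held 42.5 and 46.3 CPM, and their mean was 17.3% of the ESC level.

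The 4 genes lower in ESCs were Myc, Klf4, Nr5a2 and Etv5. Myc was at 278 and 294 CPM at day 9 and 19 and 18.4 CPM in ESCs (log2 fold change -3.94, SE 0.04, edgeR adjusted p 3.9e-17). Klf4 was at 402 and 419 CPM against 179 and 186 CPM. Reads of the cassette and of the endogenous genes were summed, and the transcript Myc-202 held 89.9% and 90.7% of the Myc reads at day 9 but 4.96% and 4.22% in ESCs. For Klf4 the transcript Klf4-003 held 16.6% and 17.9% against 5.72% and 5.83%. Sox2, the remaining factor of the cassette, was not called, with 271 and 280 CPM at day 9 and 242 and 241 CPM in ESCs (log2 fold change -0.19). Nr5a2, a nuclear receptor that can replace Oct4 in reprogramming, was at 86.3 and 83.9 CPM against 35.6 and 35.7 CPM and lies outside the cassette. On log2(TPM + 0.1), which scales by transcript length, Nr5a2 and Etv5 came to -0.98 and -0.99 with limma and were no longer called.

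**Figure D3:**
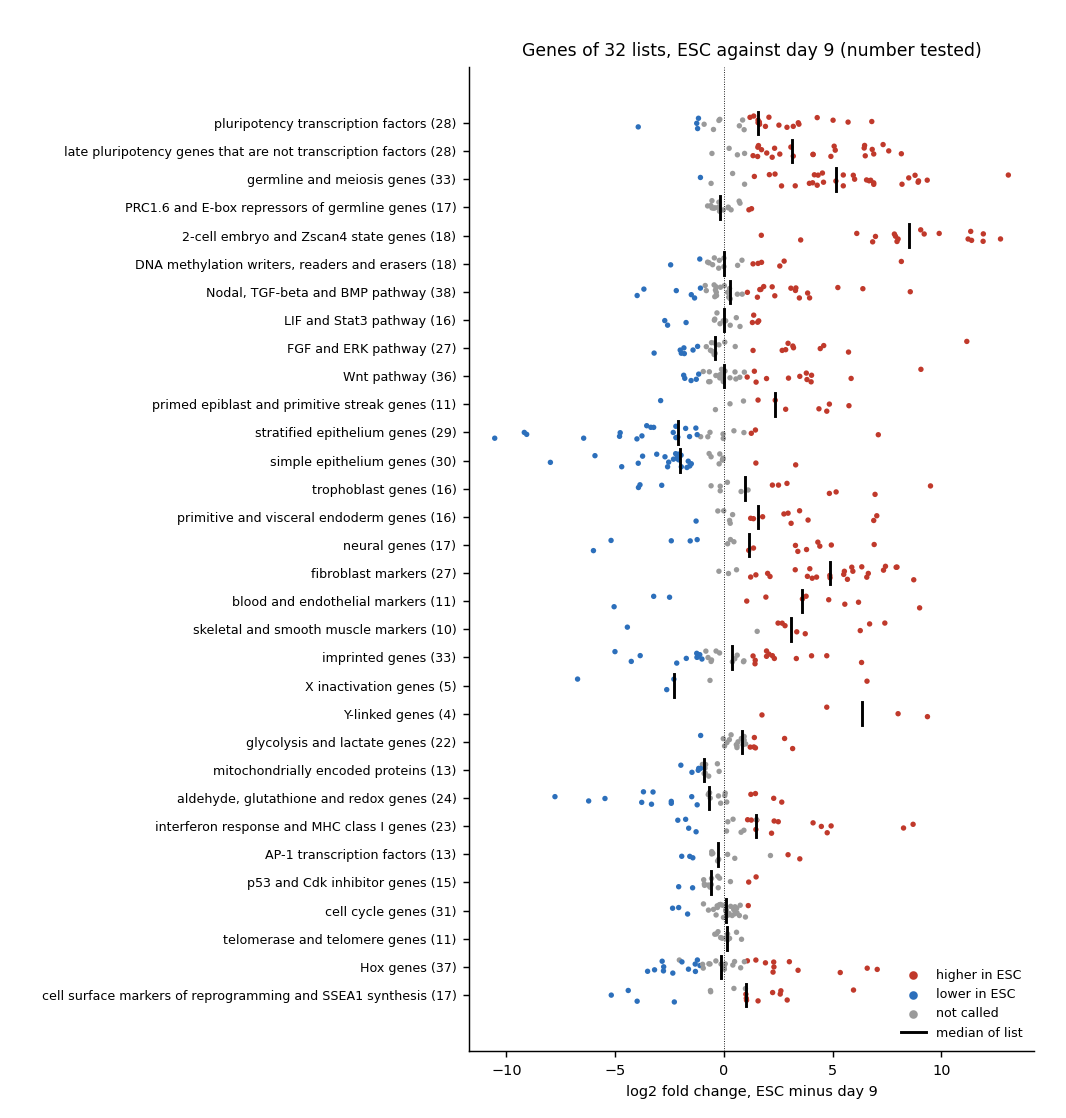
Log2 fold change, ESC minus day 9, of every tested gene in 32 gene lists, 1 point per gene and the list median as a black bar. Medians lie above 3 for late pluripotency, germline, 2-cell, Y-linked, blood and endothelial, muscle and fibroblast genes and below -2 for both epithelial lists and X inactivation genes. After subtraction of the fibroblast share the medians of late pluripotency, blood and endothelial and muscle genes are 2.78, 2.37 and 1.94. These are ratios with 0.1 CPM added, not the fitted fold changes drawn here, so part of each drop can come from that addition. Khdc3, which kept its 33.8 and 37.8 CPM in ESCs, goes from 7.58 to 7.01.

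Late pluripotency genes that are not transcription factors were mostly far from the ESC level at day 9. Of 29 listed and 28 tested, 24 were higher in ESCs and 4 were not called, with a median log2 fold change of 3.13. In each of the 24 the MEF mean was below the ESC mean. Dnmt3l (chromosome 10, 78041947 to 78063622, GRCm38), the catalytically inactive partner of the de novo DNA methyltransferases, was at 1.22 and 1.24 CPM at day 9 and 348 and 357 CPM in ESCs. Its log2 fold change was 8.16 (SE 0.09, edgeR adjusted p 2.5e-17). Dppa2 and Dppa4 encode SAP-domain proteins that act as a pair on chromatin. Dppa2 was at 1.06 and 0.657 CPM at day 9 and at 139 and 130 CPM in ESCs, and Dppa4 at 0.836 and 1.11 CPM against 113 and 111 CPM. Tcl1, a co-activator of Akt, was at 0.611 and 0.657 CPM against 58.0 and 57.7 CPM. Khdc3, a component of the maternal complex of the egg, was at 0.129 and 0.227 CPM against 33.8 and 37.8 CPM. These 5 genes stood at 1.1% of the ESC level or less at day 9.

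Dppa5a, an RNA-binding protein of early embryos, stood at 1.13% of its ESC level, with 16.2 and 15.9 CPM at day 9 and 1398 and 1441 CPM in ESCs, one of the 8 largest rises in CPM among protein-coding genes. Other members were closer to their ESC level. Lin28a, which blocks the processing of let-7 microRNAs, was at 12 and 12.3 CPM against 211 and 206 CPM. Tdgf1, the Nodal co-receptor Cripto, was at 99.6 and 98.9 CPM against 827 and 847 CPM. Fgf4, the autocrine FGF of pluripotent cells, stood at 39.4% of its ESC level, with 79.1 and 79.8 CPM against 202 and 201 CPM. Its means at day 3 and day 6 were already 94.3 and 72.3 CPM. Dppa3, which protects imprinted DNA from demethylation, was low in both groups, at 1.74 and 1.39 CPM against 9.01 and 9.51 CPM. Not called were L1td1 (435 and 449 against 512 and 528 CPM), Tdh, Jam2 and Eras. Tdh, the threonine dehydrogenase of mouse ESCs, was at 234 and 236 CPM at day 9 and 160 and 161 CPM in ESCs.

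**Figure D4:**
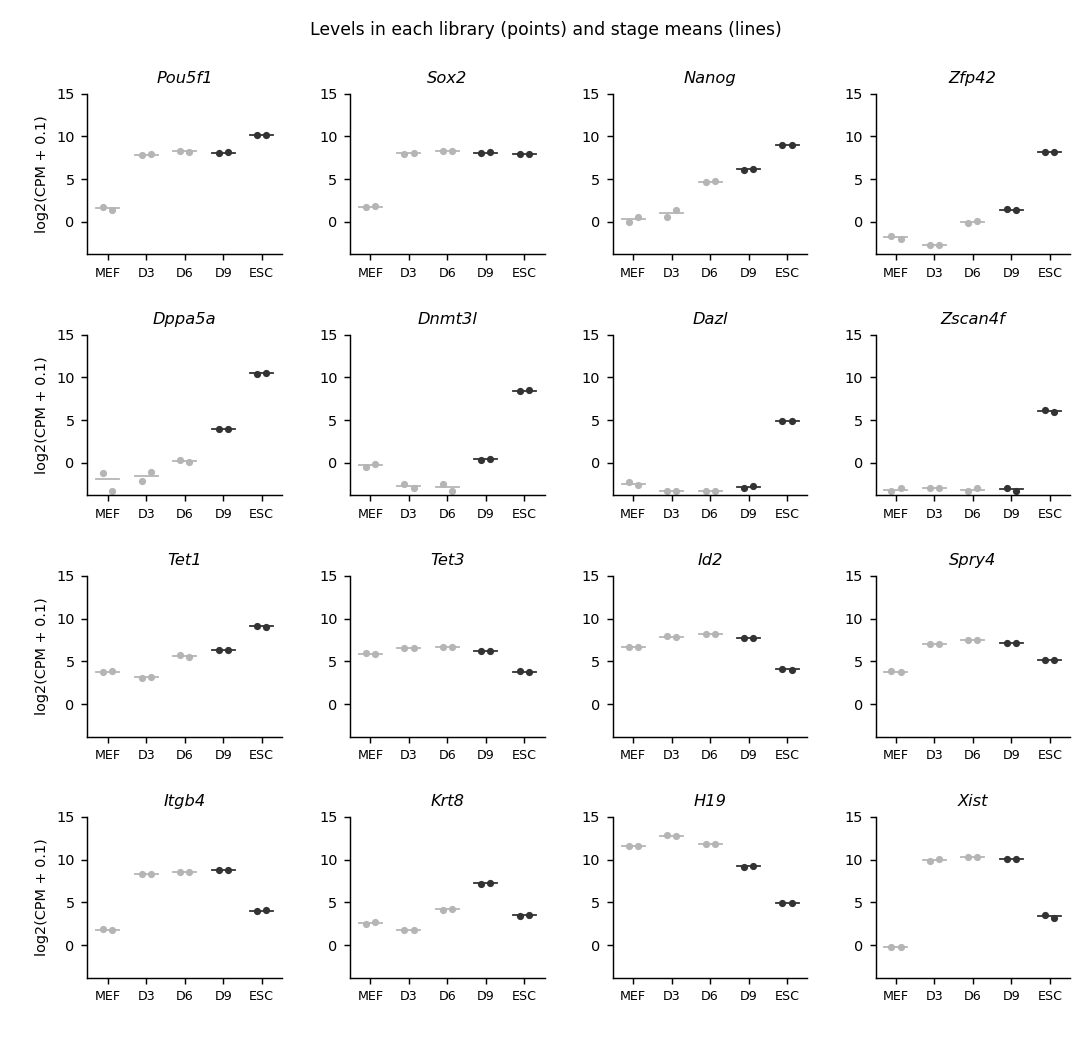
Levels of 16 genes in log2(CPM + 0.1) in each library (points) of the 5 stages, with stage means as lines, day 9 and ESC in dark grey and the other stages in light grey. Dnmt3l, Dazl and Zscan4f stay near the bottom of the axis through day 9, while Nanog and Tet1 are part of the way to the ESC level and Id2, Spry4, Itgb4 and Krt8 lie above it.

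Most germline genes were close to silent at day 9. Of 34 genes of germ cell identity, meiosis and the piRNA pathway, 33 were tested and 29 were higher in ESCs, with 1 lower (Tdrkh, 16.1 and 15.9 against 7.54 and 7.53 CPM) and 3 not called (Piwil2, Pld6 and Tdrd1). Members near 0 at day 9 passed the filter on low counts through the ESC libraries, so these counts describe the list and lend it no support. Tdrkh came to -0.78 on log2(TPM + 0.1) with limma and was no longer called. The median log2 fold change was 5.15, or 4.58 when the 3 members without a read in a group were set to the bound that 3 reads would give. The whole list summed to 76.6 and 75 CPM at day 9 and 641 and 615 CPM in ESCs. Dazl, an RNA-binding protein of germ cells, had 3 reads at day 9 (0.0321 and 0.0505 CPM) and was at 31.0 and 29.4 CPM in ESCs. That is a ratio of 710, with a 95% Poisson interval of 243 to 3445 for counting error only. Sohlh2 (chromosome 3, 55182028 to 55209957, GRCm38), a helix-loop-helix factor of spermatogonia and oocytes, had no read at day 9 and was at 33.7 and 30.0 CPM in ESCs, at least 748-fold higher at a floor of 3 reads over the group. Mael and Ddx4, of the germ granule and the piRNA pathway, were at 16.9 and 14.7 CPM and at 31.6 and 32.6 CPM in ESCs, against under 0.1 CPM in each day 9 library. Stra8, the retinoic acid-responsive gene of meiotic entry, lies outside the list. It was among the largest rises of all genes, from 0.0964 and 0.0253 CPM to 33.2 and 37.4 CPM.

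Many of these genes carry an E-box, the letters CACGTG, near their start. In cells that keep germline genes silent this element is bound by Mga with Max, part of the variant Polycomb complex PRC1.6. RefSeq promoter windows (GRCm38.p6, 250 bases before to 50 after a start) were at hand for 31 of the 34 genes, and 15 of these (48.4%) held CACGTG in at least 1 window. It reads the same on both strands. Of all 32851 windows 7.15% held it, and of the tested genes with a window 11%. Of the genes called higher in ESCs, 8.94% held it. Germline genes called higher had nearly the share of their whole list (13 of 27 with a window, 48.1%). In the other lists the share ran from 0 to 30.8%, the latter for p53 and Cdk inhibitor genes. The 120 bases before the start are shown for the germline genes called higher at 10 CPM or more in which the letters fall in that stretch, ordered by fold change, and for Dazl, which lacks them. Capitals mark CACGTG.
Ddx4: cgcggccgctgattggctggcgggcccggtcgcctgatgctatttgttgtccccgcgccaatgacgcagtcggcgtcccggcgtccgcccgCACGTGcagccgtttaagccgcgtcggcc
Hormad1: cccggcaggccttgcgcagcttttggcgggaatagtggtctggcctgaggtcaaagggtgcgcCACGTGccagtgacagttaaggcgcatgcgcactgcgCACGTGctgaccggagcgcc
Stk31: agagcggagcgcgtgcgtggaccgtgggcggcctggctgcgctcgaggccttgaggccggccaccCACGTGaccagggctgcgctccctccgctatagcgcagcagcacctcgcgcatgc
Fkbp6: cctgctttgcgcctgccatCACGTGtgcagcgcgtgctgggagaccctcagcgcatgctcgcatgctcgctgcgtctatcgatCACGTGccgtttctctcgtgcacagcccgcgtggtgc
Sycp1: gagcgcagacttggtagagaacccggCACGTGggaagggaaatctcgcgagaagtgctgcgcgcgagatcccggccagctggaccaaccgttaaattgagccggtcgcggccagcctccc
Dazl: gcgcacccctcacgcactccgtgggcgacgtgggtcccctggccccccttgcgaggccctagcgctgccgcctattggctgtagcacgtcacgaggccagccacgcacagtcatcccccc

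These stretches are chr13:112652311-112652430 on the minus strand (Ddx4), chr3:95559557-95559676 on the plus strand (Hormad1), chr6:49395419-49395538 on the plus strand (Stk31), chr5:135350045-135350164 on the minus strand (Fkbp6), chr3:102936101-102936220 on the minus strand (Sycp1) and chr17:50293621-50293740 on the minus strand (Dazl). The first base of the element lies 29 bases before the start in Ddx4, 57 and 20 before it in Hormad1, 55 in Stk31, 101 and 37 in Fkbp6 and 94 in Sycp1. Hormad1, a protein of the meiotic chromosome axis, was at 0.0643 and 0.202 CPM at day 9 and 43.4 and 41.3 CPM in ESCs. Stk31, a Tudor-domain kinase of germ cells, was at 0.193 and 0.0758 CPM against 15.8 and 15.4 CPM, and Fkbp6, a piRNA cochaperone, at 0.482 and 0.202 CPM against 15.5 and 14.4 CPM. Sycp1, of the synaptonemal complex, differed least of the 5 genes with the element, with 2.73 and 2.7 CPM against 12.4 and 10.9 CPM. Members without these letters in a window, such as Sohlh2 and Hsf2bp, were also far higher in ESCs. These genes other than Ddx4 and Sohlh2 were named for their promoters, after their values were seen. Pld6 and Tdrd1 held the letters in a window and were not called, at log2 fold changes of 0.95 and -0.59.

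**Figure D5:**
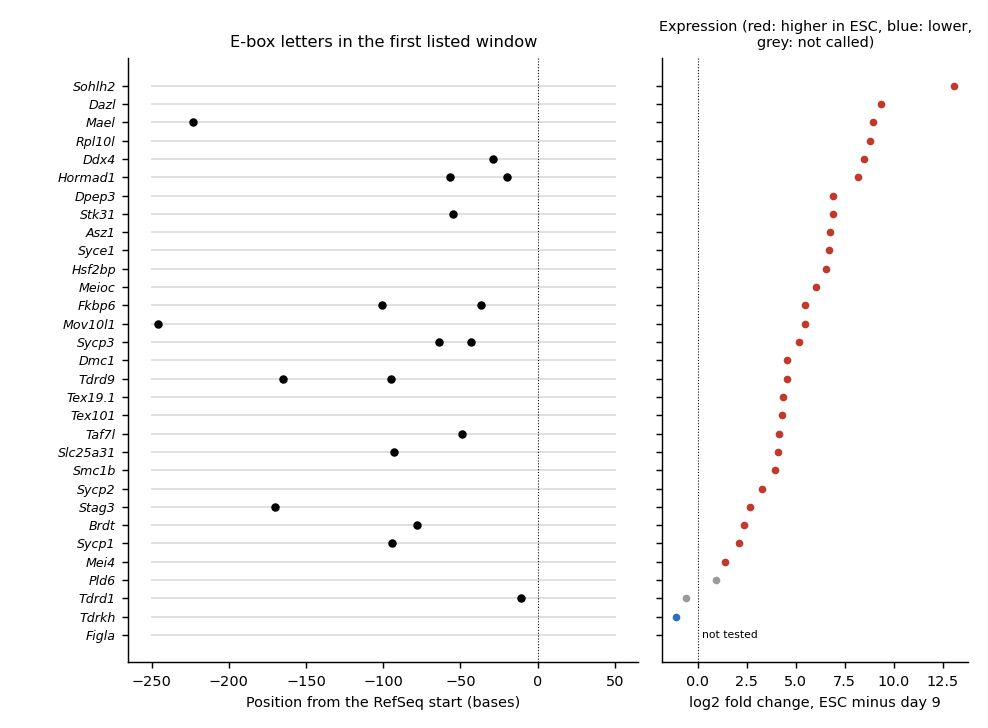
Left, position of the letters CACGTG (black points) relative to the RefSeq start in the first listed 300-base window (grey lines) of 31 germline genes; right, log2 fold change, ESC minus day 9, of these genes other than Figla, which was not tested. Ddx4 with the element and Sohlh2 without it are both far to the right, and Sycp1 with it and Mei4 without it are among the smallest rises.

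Few of the repressors of this pathway were called. Of 17 members of PRC1.6 and its partners tested, 2 were higher in ESCs and 15 were not called, while 32.9% of all genes were called. Their median log2 fold change was -0.2 on counts and 0.06 on log2(TPM + 0.1). L3mbtl2 was at 52.6 and 52.8 CPM at day 9 and 126 and 129 CPM in ESCs, and Rybp at 72.5 and 75.1 CPM against 167 and 162 CPM. With the genes at or above the ESC level in MEFs left out, which rescales the rest, Rybp came to 0.98 and was not called. Max was at 69.1 and 68.7 CPM against 66.6 and 68.8 CPM, with overlapping libraries. Mga, its partner, was at 135 and 128 CPM against 214 and 211 CPM and was not called at a log2 fold change of 0.7. Setdb1, a histone H3 lysine methyltransferase, was at 214 and 213 CPM against 129 and 124 CPM, with a log2 fold change of -0.75.

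Genes of the 2-cell-like state were detected almost only in ESCs. Of 23 listed genes, 18 passed the filter on low counts, and with so few reads at the other stages they passed through the ESC libraries, so that a call as higher was fixed by the filter. DESeq2 called 15 of the 18 and not Tcstv1, Usp17lb and Duxf3. The list summed to 1.09 and 0.758 CPM at day 9, 1.29 and 2.29 CPM in MEFs and 177 CPM in each ESC library. Zscan4f, a zinc finger protein that marks the state, was at 0.0321 and 0 CPM at day 9 and 74.0 and 64.4 CPM in ESCs, and Zscan4c had no read at day 9 and was at 22.5 and 27.2 CPM in ESCs (at least 589-fold higher). Duxf3, the Dux transcription factor that activates these genes, had no read at day 9 and was at 0.678 and 1.2 CPM in ESCs. The median log2 fold change was 8.53, or 6.67 with the 11 members without a read at day 9 set to their bound. Copies of Zscan4, Usp17l and Tdpoz are nearly identical, so the division of reads among them is uncertain. The levels are means over all cells of a library and do not show how many cells carried the transcripts.

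DNA methylation genes were called in both directions. Of 18 tested, 6 were higher and 2 lower in ESCs, beside 18.6% and 14.3% of all genes tested. Their median log2 fold change was 0. Tet1, a dioxygenase that oxidises 5-methylcytosine, was at 81.6 and 78.4 CPM at day 9 and 562 and 528 CPM in ESCs (log2 fold change 2.77, SE 0.05, edgeR adjusted p 3.1e-15). Tet3, its relative of the egg and of somatic cells, ran the other way, with 74.1 and 72.1 CPM against 13.9 and 12.9 CPM (-2.45, SE 0.06, edgeR adjusted p 4.2e-14). Tet2 was not called, with 103 and 98.9 CPM against 163 and 151 CPM. Dnmt3b, a de novo methyltransferase, was at 46.8 and 47.3 CPM against 138 and 141 CPM, while Dnmt1, which copies methylation at replication, was at 320 and 317 CPM against 269 and 272 CPM and was not called. Zfp57 and Trim28, which protect imprinted loci, stood at 30.0% and 39.6% of their ESC levels at day 9.

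Imprinted genes, expressed from 1 parental allele, were split. Of 33 tested, 12 were higher and 10 lower in ESCs, with a median log2 fold change of 0.39. That median was -0.1 without ESC replicate 1. After subtraction of the fibroblast share it was -0.86, beside -0.19 for all genes, so the list had no stable direction. H19 and Igf2 share an imprinted control region. H19, a noncoding RNA, was at 573 and 603 CPM at day 9 and 30.1 and 31.0 CPM in ESCs, and Igf2, a growth factor, at 141 and 145 CPM against 8.48 and 11.3 CPM. Both were higher still in MEFs, with means of 3066 and 2383 CPM. Of the noncoding RNAs of the Dlk1-Dio3 domain, 3 were lower in ESCs: Meg3 at 456 and 478 against 216 and 179 CPM, Rian at 669 and 659 against 293 and 285 CPM and Mirg at 28.0 and 27.7 against 12 and 11.4 CPM. Meg3 was no longer called on log2(TPM + 0.1) with limma (-0.88). Nnat, a membrane proteolipid, was at 179 CPM in both day 9 libraries and 5.39 and 5.69 CPM in ESCs, and Grb10, a growth-limiting adaptor, at 1144 and 1146 CPM against 259 and 251 CPM. Higher in ESCs were Phlda2 (1.38 and 1.29 against 34.9 and 35.8 CPM) and Peg10 (17.6 and 18.5 against 90.3 and 90.3 CPM). For 5 of the 12 higher genes, Mest, Ndn and Cdkn1c among them, the MEF mean was at or above the ESC mean. After subtraction of the fibroblast share 9 of the 12 stayed 2-fold higher, Mest and Ndn fell to 0.71 and 0.49, and Cdkn1c turned to -1.0.

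Signalling genes were ordered by their role. In the Nodal, TGF-beta and BMP pathway 16 of 38 genes were higher and 6 lower in ESCs, with a median log2 fold change of 0.27. The higher genes included the Nodal branch: the ligand Nodal (15.9 and 16.4 against 51.0 and 54.3 CPM), its co-receptor Tdgf1, and its feedback targets Lefty1 and Lefty2. Lefty1 was at 3.21 and 2.0 CPM at day 9 and 94.2 and 98.7 CPM in ESCs, and Lefty2 at 2.89 and 3.13 CPM against 46.1 and 47.1 CPM. In all, 8 of the 16 higher genes had a MEF mean at or above the ESC mean, Inhba and Tgfb3 among them. After subtraction of the fibroblast share 14 of the 16 were still 2-fold higher. The median of the list was then -0.3, beside -0.19 for all genes. Id1, Id2 and Id4, known targets of BMP, were lower in ESCs. Id2 was at 207 and 218 CPM at day 9 and 17.0 and 16.3 CPM in ESCs (log2 fold change -3.68, SE 0.05, edgeR adjusted p 3.6e-16), Id4 at 49.8 and 51.9 CPM against 2.95 and 3.42 CPM, and Id1 at 83.5 and 85.0 CPM against 29.5 and 30.2 CPM. Id3, a further target, was not called. The receptor Bmpr1a was at 144 and 137 CPM against 78.5 and 76.8 CPM and did not reach the fold threshold.

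Within the FGF and ERK pathway all 8 ligands tested were higher in ESCs, while no feedback inhibitor was. Fgf15 had no read at day 9 and 605 in the ESC libraries. It passed the filter on low counts without a day 9 read, so its call lends the count of 8 no support. Over the 27 genes tested, 10 were higher and 7 lower, with a median log2 fold change of -0.4. Besides Fgf4, the ligand Fgf17 was at 0.707 and 0.934 CPM at day 9 and 18.1 and 17.9 CPM in ESCs. Fgf2 was at 0.868 and 1.29 CPM against 25.7 and 27.6 CPM, with a MEF mean of 25.5 CPM, and Fgf7 and Fgf10 had MEF means above the ESC mean. The other 2 higher genes were the receptor Fgfr4, under 2.5 CPM in each library, and the AP-1 factor Fosl1. The receptor Fgfr1 was at 387 and 397 CPM at day 9 and 146 CPM in each ESC library, and Fgfr2 at 24.5 and 26.2 CPM against 6.54 and 6.12 CPM. Spry4, an inhibitor of receptor signalling, was at 136 and 137 CPM against 34.0 and 36.2 CPM. Dusp6, the phosphatase that acts on ERK, was at 169 and 170 CPM against 47.3 and 48.5 CPM (log2 fold change -1.82, SE 0.04, edgeR adjusted p 1.1e-14). The ERK-responsive ETS factor Etv5 was at 387 and 397 CPM against 167 and 172 CPM, whereas Etv4 and Spry2 were not called.

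LIF pathway genes were called in 7 of 16 cases, 4 higher and 3 lower, beside 32.9% of all genes tested. Their median log2 fold change of 0.02 moved to -0.38 after subtraction of the fibroblast share, beside -0.19 for all genes. The receptor Lifr was at 22.9 and 22.3 CPM at day 9 and 59.5 and 57.3 CPM in ESCs, and the target kinase Pim1 at 35.6 and 38.6 CPM against 105 and 113 CPM. The feedback genes Socs2 (114 and 122 against 37.4 and 33.2 CPM) and Cish (30.9 and 34.9 against 4.86 and 5.15 CPM) and the receptor Il6ra (21.2 and 22.3 against 3.86 and 3.36 CPM) were lower in ESCs. Osmr, the receptor of oncostatin M, was higher in ESCs at a MEF mean of 160 CPM. After the subtraction it came to -0.13, close to the -0.19 of all genes. Stat3, the transducer, and its target Socs3 were not called, with Socs3 at 105 and 101 CPM against 101 and 101 CPM.

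Of 36 Wnt pathway genes tested, 12 were higher and 5 lower, with a median log2 fold change of 0.01. After subtraction of the fibroblast share it was -0.31, beside -0.19 for all genes. Higher in ESCs were the transcriptional activators Lef1 (1.41 and 1.87 against 13.9 and 12.2 CPM) and Tcf7 (10.4 and 9.98 against 39.2 and 39.7 CPM) and the feedback target Axin2 (0.45 and 0.429 against 6.19 and 6.28 CPM). The repressive factor Tcf7l1 was lower, with 130 and 138 CPM at day 9 and 59.2 and 61.0 CPM in ESCs, as was Tcf7l2. Beta-catenin (Ctnnb1) was not called, with 872 and 880 CPM against 678 and 675 CPM. The MEF mean was at or above the ESC mean for 5 of the 12 higher genes, which were the secreted proteins Wnt9a, Wnt11, Dkk2, Dkk3 and Sfrp2, and 9 of the 12 stayed 2-fold higher after the subtraction.

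Markers of the primed epiblast and primitive streak were low in both groups, with 10 of 15 under 1 CPM in all 4 libraries. Of 11 tested, 7 were higher and 1 lower. Pou3f1 (Oct6), a POU factor of the epiblast and of neural cells, was the gene lower in ESCs, with 96.9 and 102 CPM at day 9 and 12.8 and 13.7 CPM in ESCs, and a MEF mean of 0.226 CPM. Otx2, a head and epiblast homeodomain factor, was at 0.482 and 0.455 CPM against 11.9 and 13 CPM. Fgf5 and T, the classical markers of the epiblast and the streak, did not exceed 1 CPM in any of the 4 libraries, although both were called higher in ESCs.

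Day 9 cells carried epithelial transcripts well above the ESC level. Simple epithelia line ducts and cavities with a single cell layer. Of 30 genes of simple epithelium, 21 were lower in ESCs and 2 higher, with a median log2 fold change of -2.03, and the list summed to 2860 and 2964 CPM at day 9 and 1332 and 1346 CPM in ESCs. Krt8, a keratin of simple epithelia, was at 144 and 154 CPM at day 9 and 10.9 and 11.4 CPM in ESCs. Ehf, an epithelial ETS factor, was at 151 and 155 CPM against 0.56 and 0.641 CPM (log2 fold change -7.98, SE 0.07, edgeR adjusted p 6e-18). Cldn3, a tight junction claudin, was at 41.3 and 45.3 CPM against 2.71 and 2.94 CPM, and Rab25, a GTPase of apical recycling, at 45.3 and 47.2 CPM against 1.71 and 1.84 CPM. Epcam was at 441 and 457 CPM against 143 and 145 CPM. Cdh1, E-cadherin, was level in both groups (405 and 423 against 357 and 355 CPM, log2 fold change -0.22, not called), as was Tjp1 of the tight junction. The 2 genes higher in ESCs were Elf3 and Cdh3, and Cdh3 had a MEF mean of 219 CPM against 30.6 and 33.3 CPM in ESCs.

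A like pattern was seen for 29 tested genes of stratified epithelium, the layered type of skin, of which 19 were lower in ESCs and 3 higher (Krt16, Ivl and Sprr1a, none above 1.66 CPM, of which DESeq2 called only Ivl), with a median of -2.12. Among the lower genes were those of the basement membrane contact and the desmosome. The integrin Itgb4 was at 431 and 457 CPM at day 9 and 15.7 and 16.8 CPM in ESCs, desmoplakin (Dsp) at 250 and 249 CPM against 26.0 and 27.2 CPM and the desmosome protein Pkp1 at 47.5 and 46.2 CPM against 0.354 and 0.694 CPM. Krt6a, a keratin of activated skin, was at 26.9 and 25.8 CPM at day 9 and had 1 read in the ESC libraries, a ratio of 1876 with a 95% Poisson interval of 337 to 74102; Krt6a and Krt6b are close copies and the division of their reads is uncertain. Ly6d was at 16.3 and 17.7 CPM against 0.0295 and 0.0267 CPM. The defining genes of the basal layer were nearly absent. Krt5 was at 0.579 and 0.455 CPM against 0.206 and 0.401 CPM and was not called, and Trp63 was at 0.354 and 0.379 CPM against 0.0884 and 0.0534 CPM. Trp63 was no longer called without ESC replicate 2 (-2.01) or on log2(TPM + 0.1) with limma (-0.36).

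Markers of other lineages differed in both directions. Trophoblast genes numbered 7 higher (5 with DESeq2) and 3 lower of 16 tested, with 9 of 21 under 1 CPM in all 4 libraries, and Tfap2a, a factor of surface ectoderm and trophoblast, was lower in ESCs, at 27.2 and 26.2 CPM at day 9 and 1.89 and 1.79 CPM in ESCs. Endoderm genes numbered 10 higher (7 with DESeq2 and 9 after subtraction of the fibroblast share) and 1 lower of 16 tested. Lrp2, an endocytic receptor of visceral endoderm, was at 3.83 and 3.69 CPM against 43.5 and 40.3 CPM and Rhox5 at 1.29 and 1.62 CPM against 12 and 12.8 CPM, while Sox17, called higher by edgeR and not by DESeq2, and Foxa2 did not exceed 1 CPM in the 4 libraries. Neural genes numbered 9 higher and 5 lower of 17 tested: Olig2 was at 0.804 and 0.505 CPM against 20.7 and 18.7 CPM, and Map2 at 18.2 CPM in each day 9 library against 3.98 and 2.86 CPM. Stmn2, a microtubule regulator of neurons, was at 103 and 107 CPM against 227 and 235 CPM, Tubb3, a neuronal tubulin, at 3.95 and 4.57 CPM against 90.8 and 91.8 CPM with a MEF mean of 95.4 CPM, and Ncam1 at 4.37 and 4.14 CPM against 60.0 and 58.2 CPM with a MEF mean of 327 CPM. Map2 was no longer called on log2(TPM + 0.1) with limma (-0.94). Blood and endothelial genes numbered 8 higher and 3 lower of 11 tested. Their median log2 fold change was 3.61, but 2.67 without day 9 replicate 2 and -0.23 over the 4 members that pass a filter of 10 CPM in 2 libraries. Lyz2, a lysozyme of macrophages, was at 0.771 and 1.29 CPM against 49.6 and 50.6 CPM with a MEF mean of 3.41 CPM, while Ptprc (CD45) stayed under 1 CPM and the globins Hbb-bt and Hba-a1 at or near 0. Tek, an angiopoietin receptor, was lower in ESCs, at 67.7 and 68.9 CPM against 7.07 and 7.5 CPM. Of 10 muscle genes 8 were higher in ESCs, and all 8 had a MEF mean at or above the ESC mean, Tagln (61.8 and 65.8 against 400 and 417 CPM, MEF 2301 CPM) and Cnn1 among them. After subtraction of the fibroblast share 6 of the 8 stayed 2-fold higher.

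Hox genes, which hold positional identity, split by cluster member. Of 37 tested, 11 were higher and 12 lower in ESCs, with a median log2 fold change of -0.13. It was 0.01 or 0.02 under several alternatives and -0.88 after subtraction of the fibroblast share, beside -0.19 for all genes. The list summed to 115 and 119 CPM at day 9, 95.9 and 93.4 CPM in ESCs and 423 and 422 CPM in MEFs. Hoxa9 was at 11.5 and 12.4 CPM at day 9 and 1.15 and 1.47 CPM in ESCs, and Hoxa10 at 12.5 and 13 CPM against 1.71 and 1.98 CPM. Hoxb9 was at 1.13 and 1.21 CPM against 13.2 and 11.9 CPM, with a MEF mean of 62.4 CPM. Of the 11 higher genes, 8 had a MEF mean at or above the ESC mean, and subtraction of the fibroblast share left 7 of the 11 calls. In the interferon and MHC class I list 13 of 23 genes were higher and 4 lower, and 12 of the 13 had a MEF mean at or above the ESC mean. Subtraction of the fibroblast share left 10 of these 13 calls. B2m, the light chain of MHC class I, was at 39.6 and 42.3 CPM against 97 and 99.6 CPM with a MEF mean of 355 CPM, and came to 0.64 after the subtraction, whereas the heavy chain H2-K1 was lower in ESCs, at 66.5 and 71.7 CPM against 19.2 and 21.4 CPM. Bst2 was also lower, at 203 and 209 CPM against 46.3 and 48.9 CPM.

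The sort marker was examined through its enzymes, since SSEA1 is a carbohydrate without a transcript of its own. Fut9, the fucosyltransferase that makes it in early embryos, was at 72.1 and 67.2 CPM at day 9 and 15.2 and 13.5 CPM in ESCs. Fut4, the other enzyme, was at 1.22 and 1.09 CPM against 0.854 and 0.641 CPM and was not called. Among 17 surface genes tested 9 were higher and 4 lower, with a median log2 fold change of 1.01. Pecam1, an adhesion molecule of ESCs and endothelium, was at 1.48 and 1.67 CPM at day 9 and 96.3 and 102 CPM in ESCs, and Icam1 at 7.71 and 7.48 CPM against 46.2 and 44.9 CPM. Cd44 was higher in ESCs too, but its MEF mean of 268 CPM exceeded the 144 and 147 CPM in ESCs. Lower in ESCs were Ly6a (Sca-1) at 298 and 323 against 8.22 and 8.92 CPM, Cd24a at 335 and 342 against 15.9 and 16.1 CPM and Cd34 at 45.6 and 46.8 against 3.12 and 2.72 CPM. The sialomucin Podxl was one of the largest differences in CPM, with 892 and 908 CPM at day 9 and 20.5 and 19.8 CPM in ESCs. Thy1, the fibroblast surface antigen, was at 8.68 and 10.4 CPM against 154 and 169 CPM, with a MEF mean of 1149 CPM.

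Sex-linked genes separated the groups. Xist (chromosome X, 103460366 to 103483254, GRCm38), the RNA that coats the inactive X, was at 1103 and 1047 CPM at day 9 and 11.3 and 9.0 CPM in ESCs (log2 fold change -6.73, SE 0.09, edgeR adjusted p 2.6e-16). Ddx3y, on the Y chromosome, was at 0.0964 and 0.101 CPM against 26.1 and 26.8 CPM, with a MEF mean of 88.5 CPM, and all 4 Y-linked genes tested were higher in ESCs. Both genes also set the MEFs apart from every induced stage: Xist had a mean of 0.766 CPM in MEFs, 1010 CPM at day 3 and 1304 CPM at day 6, and Ddx3y a mean of 0.0713 CPM at day 3 and 0.164 CPM at day 6. The MEF libraries that served to measure fibroblast RNA thus differed from the day 9 cells in these genes. The labels give no sex, and a difference between the source embryos and one between the stages cannot be told apart. Genes of the X chromosome as a whole had a median log2 fold change of -0.09, beside 0.01 for the autosomes, with 19% higher and 17.4% lower of 746 tested. On autosomes 18.5% were higher and 14.1% lower. Tsix, antisense to Xist, was at 0.0321 and 0.101 CPM against 6.95 and 7.18 CPM; the kit keeps the strand, but how the counting used it is not given in the sources used here.

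Of 22 genes of glycolysis and lactate transport, 6 were higher and 1 lower in ESCs, with a median of 0.84, a share called close to the 32.9% of all genes. The lactate exporter Slc16a3 was at 14.5 and 14.8 CPM at day 9 and 126 and 136 CPM in ESCs, with a MEF mean of 499 CPM, and the platelet-type phosphofructokinase Pfkp at 29.3 and 28.1 CPM against 203 and 193 CPM. Of the 13 protein genes of the mitochondrial genome, 5 were lower in ESCs and 8 were not called, with a median of -0.91. They summed to 49385 and 46634 CPM at day 9 and 25570 and 25255 CPM in ESCs, and mt-Cytb was at 6261 and 6026 CPM against 2729 and 2753 CPM.

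Of 24 tested aldehyde, glutathione and redox genes, 11 were lower and 4 higher, with a median of -0.7. Aldh3a1, an aldehyde dehydrogenase of cornea and other epithelia, was at 272 and 285 CPM at day 9 and 1.33 and 1.23 CPM in ESCs (log2 fold change -7.77, SE 0.07, edgeR adjusted p 5.5e-18), and 0.251 CPM on average in MEFs. Slc7a11, the cystine importer, was at 119 and 122 CPM against 2.65 and 2.78 CPM, and Gpx2, an epithelial glutathione peroxidase, at 64.5 and 64.9 CPM against 4.27 and 5.63 CPM. Hmox1, heme oxygenase, was higher in ESCs, at 25.7 and 24.5 CPM against 122 and 123 CPM, close to its MEF mean of 116 CPM.

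Of 31 cell cycle genes, 1 was higher and 3 lower in ESCs, beside 18.6% and 14.3% of all genes tested. Their median was 0.1, and 27 had an edgeR adjusted p under 0.05, most of them below the fold threshold. The lower genes were cyclin D2 (Ccnd2, 630 and 636 against 199 and 200 CPM), its kinase Cdk6 (132 and 134 against 30.3 and 32.8 CPM) and the retinoblastoma gene Rb1 (107 and 108 against 21 CPM in each ESC library). On log2(TPM + 0.1) with limma Cdk6 came to -0.9 and was no longer called. Ccnd3 was higher in ESCs (123 and 125 against 265 and 276 CPM), but came to 0.95 when the genes at or above the ESC level in MEFs were left out. None of the 11 telomere genes tested was called by edgeR or DESeq2. Their largest log2 fold change was 0.81, for Rif1, and 10 of the 11 had an unadjusted p under 0.05. Of 15 p53 targets and Cdk inhibitors, 2 were higher and 2 lower, beside 18.6% and 14.3% of all genes tested. Trp53, which encodes p53 itself, was at 314 and 325 CPM against 278 CPM in each ESC library. Of 13 AP-1 factors, 3 were lower and 2 higher, beside 14.3% and 18.6% of all genes tested. Both genes of the higher pair, Fosl1 and Batf, had MEF means above the ESC mean. The list median of -0.29 moved to -1.61 after subtraction of the fibroblast share, beside -0.19 for all genes. Of the higher pair 1 stayed 2-fold higher. Jun, a factor of the fibroblast and stress programmes, was at 360 and 362 CPM at day 9 and 88.9 and 99.8 CPM in ESCs, and Fosb at 318 and 305 CPM against 123 and 108 CPM.

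The protein-coding genes with the largest fold changes fell partly outside these lists. Of the 12 largest rises, Sohlh2, Dazl and Stra8 are germline genes, Zscan4c and Zscan4f belong to the 2-cell state, and Eif2s3y is Y-linked. Tuba3a, a tubulin of testis with close copies, was at 0.161 and 0 CPM at day 9 and 74.6 and 73.3 CPM in ESCs, D1Pas1, a testis copy of a DEAD-box helicase, at 0.0321 and 0.0505 CPM against 30.8 and 33.7 CPM, and Myo1f, an unconventional myosin of leukocytes, at 0.0321 and 0.101 CPM against 69.6 and 70.1 CPM. Gm13145 was at 0.289 and 0 CPM against 63.3 and 65.4 CPM. Of the 12 largest falls, Krt6a and Ehf are epithelial. Cldn11, a claudin of myelin and testis, was at 54.5 and 58.9 CPM at day 9 and 0.0295 and 0.0534 CPM in ESCs. Tac2, the precursor of neurokinin B, was at 304 and 305 CPM against 0.737 and 1.15 CPM, and Pax7, a factor of muscle stem cells and neural crest, at 77.5 and 82.3 CPM against 0.354 and 0.16 CPM. The other falls were Sbspon, Nxpe2, Sybu, Ugt1a6b, Camk1g, Sv2b and Stac, each between 20.7 and 60.3 CPM at day 9. Where a group was near 0 CPM, the fitted fold change varies with the prior count.

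By difference in CPM, the genes highest in ESCs besides Dppa5a were Hsp90aa1, a heat shock chaperone (1761 and 1785 against 4078 and 4112 CPM), and 6 matrix genes, Fn1, Thbs1, Col1a1, Col1a2, Fbln2 and Sparc, each higher in MEFs than in ESCs. Fn1, fibronectin, was at 534 and 497 CPM at day 9 and 3721 and 3704 CPM in ESCs, with a MEF mean of 8661 CPM. Lower in ESCs by the same measure were mt-Cytb, mt-Nd2, mt-Co2, Grb10, Podxl, Cmah (2458 and 2381 against 832 and 746 CPM), Cd109 (691 and 705 against 37.0 and 40.1 CPM) and Rps3a1. Cmah converts one sialic acid to another, and Cd109 is a surface protein that binds TGF-beta.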

How the data were processed

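Polyadenylated RNA of 10 libraries (2 each of MEF, day 3, day 6, day 9 and ESC) was sequenced with a stranded kit, per the labels' protocols. The deposited tables give an estimated count and a TPM value per transcript, per the file headers. They were made with Salmon 0.8.2 on mm10, per the submitters' processing notes, and the annotation release is not given in the sources used here. Estimated counts of 109617 transcripts were summed to 45706 genes, of which 98.8% matched GENCODE M21, and rounded to whole numbers. No row lacked a gene and 0 columns were left unused.

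Genes passing edgeR's filter (minimum count 10, minimum total 15) were fitted over all 10 libraries with TMM scaling and the quasi-likelihood test in edgeR 4.0.16 (R 4.3.3), with Benjamini-Hochberg adjustment over all 20165 genes. The common biological coefficient of variation was 3.75%. Counts of the 2 libraries of a group differed by more than sampling noise (chi-square per degree of freedom 3.1479 at day 9 and 3.3235 in ESCs). Alternatives used DESeq2 1.42.0, limma 3.58.1 on log2 of the deposited TPM values plus 0.1 or 1, other scalings and filters, a replicate block, 3 of the 4 libraries, and 2 treatments of feeder RNA. In one of these the median marker percentage of the MEF mean was taken from each ESC library, with 0.1 CPM added before the ratio. Each pipeline was tested on simulated data. Bounds use a floor of 3 reads over the group, and intervals are 95% Poisson intervals for counting error only.

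The 32 lists (692 genes, 690 found; Zscan4a and Dub1 did not match) and the genes named whatever their values were chosen with earlier results of these data known. Named by rule were 38 such genes, the 12 largest fold changes each way at 20 CPM or more, the 8 largest CPM differences each way, and in each list up to 5 called members each way at 10 CPM or more and up to 3 not called. Some genes that this rule names are not reported here. Chosen after their values were seen were Axin2, Batf, Dkk2, Dsp, Duxf3, Eras, Fgf5, Fgf7, Fgf10, Fgf15, Fgfr1, Fgfr4, Figla, Fkbp6, Fosl1, Foxa2, Hba-a1, Hbb-bt, Hormad1, Hsf2bp, Id3, Ivl, Krt16, Krt6b, Lum, Max, Mei4, Mga, Mirg, Mmp2, Nodal, Ptprc, Rian, Setdb1, Sfrp2, Socs3, Sox17, Sprr1a, Spry2, Stk31, Sycp1, T, Tcstv1, Tet2, Tsix, Usp17lb, Wnt9a and Wnt11.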

Additional observations from a re-analysis of the deposited data

How the results depend on the processing

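Against 3748 higher and 2889 lower genes, DESeq2 called 3452 and 2395, library-size scaling 3876 and 2750, the 4 libraries alone 3638 and 2848, and leaving out each library in turn 3490 to 3640 and 2715 to 2761. Counts moved by over 1.5 times with a filter of 10 CPM in 2 libraries, which tests fewer genes (1508 and 1458), and with genes at or above the ESC level in MEFs left out (2200 and 1245). They also moved with limma on log2(TPM + 1) (1702 and 1066), for lower genes with limma on log2(TPM + 0.1) (3484 and 1916), and with no fold change minimum (7280 and 6748). The cause was not tested for either limma setting. With the replicate block 3674 genes were higher and 2822 lower and no call of the 284 named genes changed; same-numbered libraries share only a number (correlation of deviations 0.0185). Of the named genes 278 kept their call with DESeq2 and 280 or 281 when 1 library was left out. Subtraction of the fibroblast share, without rescaling, ended 8 calls and turned the sign of 2, Osmr (-0.13) and Cdkn1c (-1.0). Osmr lay close to the median of all genes in this setting (-0.19), so it is no measured reversal. Of the ended calls, Dkk3 (0.98) and Susd2 (0.96) fell just short of 1. The subtraction left Col1a1 (-5.85), Col1a2 (-7.06), Col3a1 (-4.6), Postn (-3.39) and Twist1 (-3.98) at 0 in both ESC libraries. These ratios are set by the added 0.1 CPM and the day 9 level and are no measured reversals. Depth limits genes with few reads, whose fitted fold changes depend on the prior count.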
